A study of Mus musculus with 15 samples.

Results

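The genes described here encode the proteins of the mitochondrial ribosome. They were chosen by name and type alone, as protein-coding entries of the deposited count table whose symbol starts with Mrpl or Mrps, which gave 78 genes of 40481. The tissue was the mouse RPE/choroid complex, which is the retinal pigment epithelium (RPE), a pigmented cell sheet behind the photoreceptors, with the vascular choroid under it. The 8 INK-ATTAC libraries came from mice with floxed Abca1 and Abcg1, LysM-Cre and the INK-ATTAC transgene, and the 7 control libraries from mice with the same floxed alleles and LysM-Cre but no INK-ATTAC. All 15 libraries are labelled as AP20187 given intraperitoneally. INK-ATTAC places an FKBP-caspase 8 fusion under the p16Ink4a promoter, AP20187 dimerizes the fusion, and cells that use this promoter are thereby killed. LysM-Cre acts in myeloid cells, so both groups carry the transporter deletion there and neither group is a wild type. Ages are not among the labels, nor is the animal behind each library, so p-values measure only the spread between these libraries, which may be technical in part.

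Mitochondria translate the few proteins encoded by their own genome, all of them subunits of the respiratory chain and ATP synthase, on a ribosome of their own. Its RNAs come from mitochondrial DNA, while every protein of its large and small subunits is encoded in the nucleus, made in the cytosol and imported. The RPE is a tissue of high oxidative metabolism, and many of these proteins have counterparts in bacterial ribosomes, whereas others are found only in mitochondria.

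Promoter sequences were set beside the values. The members varied together between libraries, as described further on, and whether promoter elements go with this was not tested. RefSeq windows of 300 bases (250 before the start and 50 from it on, build GRCm38.p6) were found for 67 of the 76 symbols of tested genes. Each window was searched on both strands for NRF1 (GCGCANGCG), an ETS-type element (CCGGAAGT), YY1 (AAGATGGCG) and the GC box (GGGGCGGGG), the first 3 of which are elements known from nuclear genes for mitochondrial proteins. The 4 windows below show 1 example of each of the first 3 elements and 1 window with none of the 4. They were picked after the values were seen, for the small subunit gene of lowest p, a gene among the highest per length, the gene that varied most like the others, and the gene that varied least like them. Capitals mark the element, which in Mrps11 and Mrps21 was found on the opposite strand.
Mrps11, YY1 element, chr7:78782881-78783180, plus strand: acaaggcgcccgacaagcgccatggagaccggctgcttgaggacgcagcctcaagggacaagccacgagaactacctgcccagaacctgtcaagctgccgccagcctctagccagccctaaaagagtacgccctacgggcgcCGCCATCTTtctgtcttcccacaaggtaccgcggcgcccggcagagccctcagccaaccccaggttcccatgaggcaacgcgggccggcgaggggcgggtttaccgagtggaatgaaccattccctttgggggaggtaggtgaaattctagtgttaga
Mrps21, NRF1 element, chr3:95871465-95871764, minus strand: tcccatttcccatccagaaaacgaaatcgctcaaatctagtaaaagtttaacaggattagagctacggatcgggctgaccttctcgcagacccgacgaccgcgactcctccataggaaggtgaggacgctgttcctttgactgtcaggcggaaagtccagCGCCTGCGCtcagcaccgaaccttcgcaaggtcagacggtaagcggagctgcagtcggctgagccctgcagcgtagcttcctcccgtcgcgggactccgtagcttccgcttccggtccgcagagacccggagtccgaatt
Mrpl51, ETS element, chr6:125191950-125192249, plus strand: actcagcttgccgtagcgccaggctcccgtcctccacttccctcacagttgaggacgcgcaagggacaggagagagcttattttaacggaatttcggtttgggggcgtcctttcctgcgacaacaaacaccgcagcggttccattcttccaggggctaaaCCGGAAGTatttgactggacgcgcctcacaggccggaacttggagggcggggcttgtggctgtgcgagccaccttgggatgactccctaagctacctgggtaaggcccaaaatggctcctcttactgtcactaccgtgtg
Mrps2, none of the 4 elements, chr2:28467816-28468115, plus strand: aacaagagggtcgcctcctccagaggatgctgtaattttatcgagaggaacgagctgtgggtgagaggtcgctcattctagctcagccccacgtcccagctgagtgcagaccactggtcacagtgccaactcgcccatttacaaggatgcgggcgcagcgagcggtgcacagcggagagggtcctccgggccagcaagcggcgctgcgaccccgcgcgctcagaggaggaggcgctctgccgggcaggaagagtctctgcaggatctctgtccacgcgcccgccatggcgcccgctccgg
The NRF1 element was found in 16 of the 67 windows (23.9%), among them those of Mrpl10 and Mrpl12, against 13.6% of the windows of 11621 protein-coding genes tested and 7.03% of the windows of all 27025 genes. The ETS element was found in 11 (16.4%), against 8.04% and 4.31%. The YY1 element was found in 8 (11.9%), among them those of Mrpl42 and Mrps18a, against 3.11% and 1.64%. The GC box was found in 13 (19.4%), against 23.3% and 12.9%. These are letter matches in a window, not measured binding sites, and the difference between the shares was not tested. None of the 4 strings contains another.

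Of the 78 genes, 76 had enough counts to be tested. Mrpl53, which encodes a mitochondria-specific protein of the large subunit, had 2 counts in all, both in INK-ATTAC 3. Other annotated genes overlap 88% of its exon bases. A further Ensembl entry named Mrps23 (ENSMUSG00000098375) had 0 counts in all 15 libraries, while the other Mrps23 entry was well counted. Total counts were 47954634 to 65065950 per INK-ATTAC library and 39121503 to 59974025 per control library, and the members took 0.393% to 0.443% of them in INK-ATTAC and 0.378% to 0.450% in control libraries. Values are given as CPM, a gene's counts relative to its library's size, with sizes scaled by TMM so that most genes are level between libraries. In such bulk tissue, fewer cells of a type and less RNA per cell cannot be told apart.

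All 15 markers of RPE, the tissue the labels name, were detected in every library. Their summed level was 80277 to 103392 CPM in INK-ATTAC and 73143 to 94109 CPM in control libraries. Of these 15 markers, 5 had a higher mean in INK-ATTAC. Their mean log2 CPM was 10.37 ± 0.085 in INK-ATTAC and 10.41 ± 0.091 in control libraries (SD). Some libraries stood apart. Mitochondrial rRNA took 0.974% of the counts in control 4 and 1.10% in control 5, against 0.548% to 0.720% in the other 13 libraries. Results are therefore given with and without these 2 control libraries for the counts over the members, their sum and the mitochondrial RNAs. Markers of skeletal muscle, the tissue of the eye muscles, had a higher mean in INK-ATTAC for 22 of 22 genes, with a summed level of 1049 to 4937 CPM in INK-ATTAC and 503 to 3659 CPM in control libraries, and none was at 0 in any library. Lens markers had a higher mean in INK-ATTAC for 15 of 15 genes, with a summed level of 22.3 to 4353 CPM in INK-ATTAC and 21.5 to 893 CPM in control libraries, and Crygb, Crygc, Crygd, Mip and Lim2 were at 0 in at least 1 library. The mean was higher in INK-ATTAC for 6 of 14 choroidal endothelial, 1 of 18 rod, 2 of 13 macrophage, 1 of 9 mast cell, 0 of 9 erythrocyte, 8 of 9 adipocyte and 5 of 10 pericyte and smooth muscle markers.

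Levels of the 76 tested genes were compared per transcript length, as mean CPM per kb over all 15 libraries. They spanned 129-fold, with a median of 29.4 CPM per kb and quartiles at 13.1 and 65.4 CPM per kb. The highest were Mrps18a at 216 CPM per kb, Mrps21 at 216 CPM per kb, Mrpl42 at 211 CPM per kb and Mrpl28 at 138 CPM per kb. The first 3 lay closer together than their within-group SDs of 0.14, 0.15 and 0.22 on the log2 CPM scale, so their order is not resolved. Mrps21 and Mrpl28 have bacterial counterparts, and Mrpl42 is specific to mitochondria. The lowest were Mrps30 at 1.67 CPM per kb, Mrpl47 at 3.07 CPM per kb, Mrpl3 at 3.49 CPM per kb and Mrpl1, the protein of the mobile L1 stalk, at 4.71 CPM per kb. Large and small subunit genes had medians of 27.8 and 29.6 CPM per kb. The 4 highest and 4 lowest genes included both subunits among the highest and only large subunit genes among the lowest. These ranks depend on the transcript length taken, which was 488 to 1068 bp for the 4 highest and 3319 to 3972 bp for the 4 lowest. In CPM without length, the small subunit gene Mrps18b, at 9.62 CPM, lay below Mrpl3, at 13.8 CPM.

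**Figure D1:**
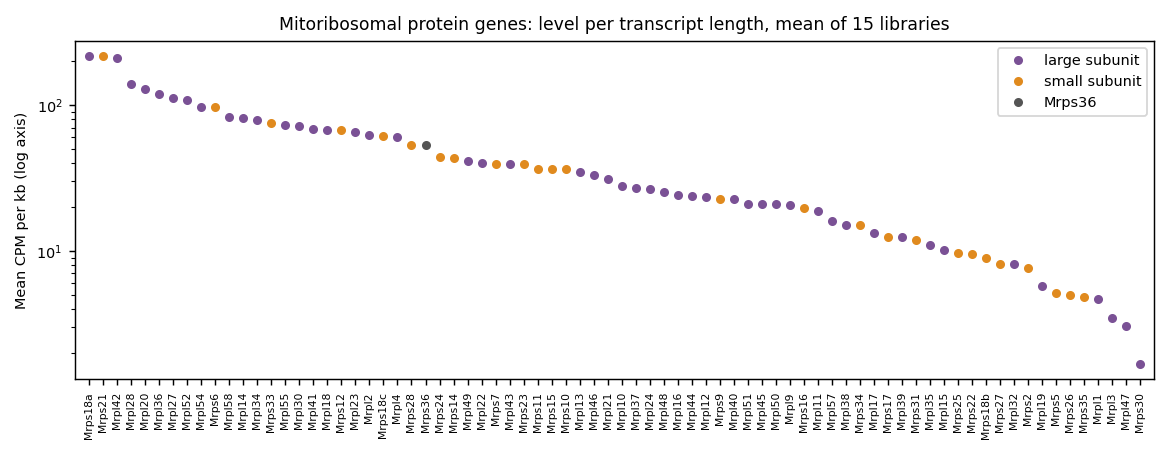
Mean CPM per kb of principal transcript over 15 libraries (log axis) for the 76 tested genes, ordered from highest to lowest, with purple points for the large subunit, orange for the small subunit and grey for Mrps36. Mrps18a, Mrps21 and Mrpl42 lie above 200 CPM per kb and Mrps30 is lowest at 1.67 CPM per kb.

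The Mrps18 family holds 3 genes related to one bacterial protein, and their levels per length differed widely. Mrps18a, whose product sits in the large subunit despite its name, stood at 216 CPM per kb. Mrps18c, the small subunit protein at the place of the bacterial one, stood at 61.6 CPM per kb, and Mrps18b, another small subunit protein, at 8.91 CPM per kb. Between groups, Mrps18a averaged 196 ± 17.9 CPM in INK-ATTAC and 185 ± 18.3 CPM in control libraries, Mrps18b 9.91 ± 1.06 CPM in INK-ATTAC and 9.28 ± 0.828 CPM in control libraries, and Mrps18c 38.5 ± 3.60 CPM in INK-ATTAC and 40.3 ± 7.14 CPM in control libraries (SD, n = 8 and 7). The INK-ATTAC and control libraries overlapped for all 3. Other annotated genes overlap 30.5% of the exon bases of Mrps18b and 23.2% of those of Mrps18c, so part of their reads may belong to those genes.

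The first comparison asked whether the levels of these genes differed between INK-ATTAC and control libraries. Whether p16Ink4a-positive cells were eliminated in this tissue was not examined here. None of the 76 genes passed edgeR's quasi-likelihood test at an adjusted p under 0.05, the lowest adjusted p being 1.00, and among all 17991 genes tested 0% passed. Log2 fold changes (INK-ATTAC over control) of the members lay between -0.18 and 0.22, with a median standard error (SE) of 0.08. At an unadjusted p under 0.05, 5 members were higher in INK-ATTAC (Mrps11, Mrpl55, Mrpl2, Mrps12 and Mrpl37), against 2.20% of all genes tested. Only Mrps2 was lower at that level, against 1.94% of all genes tested. No member had groups that did not overlap, against 0.0222% of all genes tested. The count of 5 was not stable. It was 2 without INK-ATTAC 1, INK-ATTAC 2, control 2 or control 6 (1.47% to 1.96% of all genes tested). It was 3 without INK-ATTAC 4, INK-ATTAC 5, control 1 or control 5 (1.44% to 2.24%), and 9 without control 3 (3.32%). The count of 1 was 0 without INK-ATTAC 2, INK-ATTAC 4, INK-ATTAC 8, control 3 or control 7 (1.76% to 2.85% of all genes tested). It was 2 without INK-ATTAC 5 (2.55%) or control 6 (2.19%). Among the alternatives tried, DESeq2 gave 4 higher (2.23%) and 1 lower (1.98%), and limma-voom gave 5 (2.43%) and 1 (1.91%). In both, no member passed the adjusted threshold, while 6 of all genes passed with DESeq2 and 0 with limma-voom.

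A positive log2 fold change was found for 52 of the 76 members, against 49.8% of all genes tested, and for 45.4% of the 9851 genes within the members' range of mean CPM. The median log2 fold change was 0.04 for the members, -0.00097 for all genes tested and -0.01 for the genes of that range. Proteins with a bacterial counterpart were positive for 35 of 47 genes with a median of 0.06, and mitochondria-specific proteins for 16 of 28 with a median of 0.02. Small subunit genes were positive for 21 of 26 with a median of 0.05, and large subunit genes for 30 of 49 with a median of 0.03. Cytosolic ribosomal protein genes, which share no subunit with the mitochondrial ribosome, gave similar numbers, with 54 of 76 positive, a median of 0.04, and 0 at an unadjusted p under 0.05.

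These shifts moved with the muscle markers and with single libraries. With the skeletal muscle level as a covariate, 27 of 76 members were positive and the median was -0.04, so the direction of the list turned. With the lens level as a covariate, 57 were positive with a median of 0.05. Without control 4 and control 5 together, 72 of 76 were positive and the median was 0.09. In that fit 5 members were higher and 1 lower at an unadjusted p under 0.05 (2.77% and 1.80% of all genes tested). With limma-voom and sample quality weights, 70 were positive and the median was 0.07. Leaving out 1 library at a time gave 39 to 65 positive members and a median between 0.0020 and 0.0606, the lowest of both without INK-ATTAC 2 and the largest count without control 5. The median was also lower by more than 1.5 times without INK-ATTAC 1, 4 or 5, or control 2, 6 or 7, with values of 0.01, 0.02, 0.02, 0.03, 0.01 and 0.02. In the authors' deposited table, made by another fit, 71 of the 76 members had a positive log2 fold change, with a median of 0.08 and no member past an adjusted p of 0.05. Over all genes of that table, 48.7% were positive with a median of -0.0043, and 3 passed. At an unadjusted p under 0.05 in that fit, 10 members were higher and 1 was lower. The shares over all its genes at that level were not counted.

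**Figure D2:**
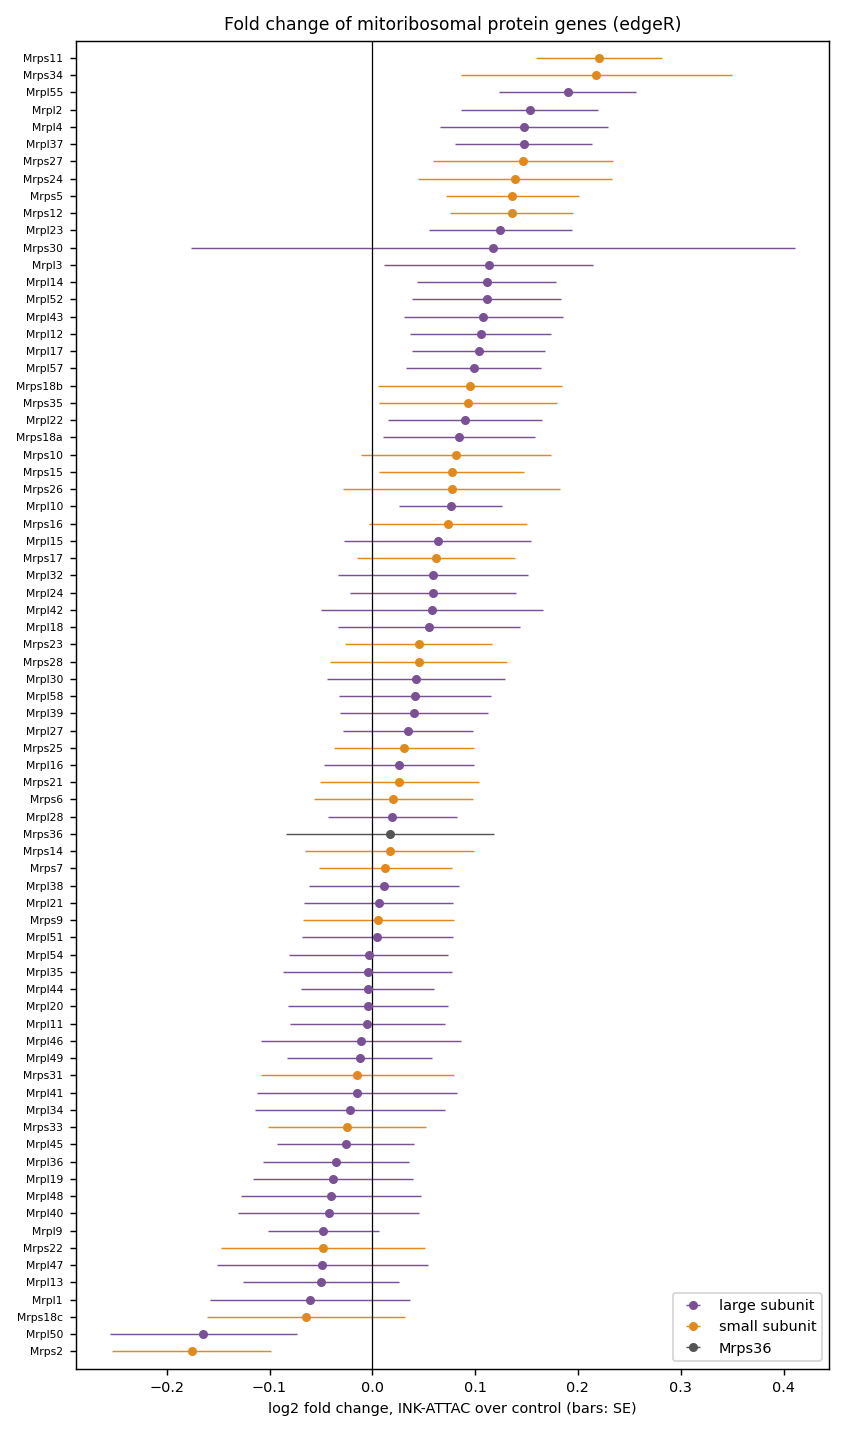
Log2 fold change of each tested gene, INK-ATTAC over control, from edgeR, with bars of 1 SE and genes ordered from the most positive at the top, purple for the large subunit, orange for the small subunit and grey for Mrps36. Of the 76 points, 52 lie right of 0, and the range is -0.18 to 0.22, with the widest bar for Mrps30.

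Among small subunit genes, Mrps11, a protein of the subunit's platform, had the lowest p. Its level was 35.3, 41.8 and 44.5 CPM (lowest, median and highest) in INK-ATTAC and 32.8, 35.3 and 39.0 CPM in control libraries. Of the 8 INK-ATTAC libraries, 7 lay above the highest control library, and INK-ATTAC 3, at 35.3 CPM, lay within the control range. The means were 41.4 ± 3.02 CPM in INK-ATTAC and 35.6 ± 2.16 CPM in control libraries (SD, n = 8 and 7), a log2 fold change of 0.22 with an SE of 0.06 (edgeR, adjusted p = 1.00). In the authors' deposited table it was 0.23 with a p of 7.18e-04 and an adjusted p of 0.606. Over the 29 alternative settings the log2 fold change of Mrps11 lay between 0.17 and 0.25 and its adjusted p between 0.507 and 1.00. Mrps11 lies at chr7:78783119-78792989 on the plus strand.

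Mrps12 encodes the counterpart of bacterial S12, which sits at the decoding centre where codon and anticodon pair. It had 53.2, 62.0 and 68.5 CPM (lowest, median and highest) in INK-ATTAC and 52.6, 56.1 and 62.7 CPM in control libraries, and the ranges overlapped over most of the control range. Its log2 fold change was 0.14 with an SE of 0.06 (edgeR, adjusted p = 1.00). Mrps5, counterpart of bacterial S5, had 20.1, 24.5 and 26.8 CPM in INK-ATTAC and 20.2, 22.0 and 23.0 CPM in control libraries, a log2 fold change of 0.14 with an SE of 0.06 (edgeR, adjusted p = 1.00). The lowest library of Mrps5 was an INK-ATTAC one, so both groups again overlapped. Mrps34 had a log2 fold change as large as that of Mrps11, 0.22, but with an SE of 0.13, and Mapk8ip3 and Nme3 overlap it over 77.8% of its exon bases. Its means were 14.7 ± 2.10 CPM in INK-ATTAC and 12.7 ± 2.83 CPM in control libraries.

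Mrps2, counterpart of bacterial S2, was the member with the most negative log2 fold change. It had 13.3, 14.9 and 17.6 CPM (lowest, median and highest) in INK-ATTAC and 14.7, 17.0 and 18.3 CPM in control libraries. The INK-ATTAC libraries reached below the control range, and the highest of them lay within it. The log2 fold change of Mrps2 was -0.18 with an SE of 0.08 (edgeR, adjusted p = 1.00). Mrps2 lies at chr2:28468066-28471178 on the plus strand, and no other annotated gene overlaps its exons.

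In the large subunit, Mrpl55, counterpart of bacterial L31, had 64.5, 71.5 and 84.5 CPM (lowest, median and highest) in INK-ATTAC and 58.7, 65.0 and 68.3 CPM in control libraries, a log2 fold change of 0.19 with an SE of 0.07 (edgeR, adjusted p = 1.00). Mrpl2, whose bacterial counterpart L2 lies near the peptidyl transferase centre, had 62.6, 65.1 and 76.7 CPM in INK-ATTAC and 54.0, 61.2 and 68.7 CPM in control libraries, a log2 fold change of 0.15 with an SE of 0.07 (edgeR, adjusted p = 1.00). Mrpl37, a mitochondria-specific protein, had 36.9, 42.8 and 45.5 CPM in INK-ATTAC and 33.7, 38.1 and 43.0 CPM in control libraries, a log2 fold change of 0.15 with an SE of 0.07 (edgeR, adjusted p = 1.00). For all 3 genes the lowest INK-ATTAC libraries lay below the highest control library. On the other side, Mrpl50, a mitochondria-specific protein, had 38.0, 40.5 and 49.1 CPM in INK-ATTAC and 38.1, 45.4 and 57.2 CPM in control libraries, a log2 fold change of -0.16 with an SE of 0.09 (edgeR, adjusted p = 1.00). Its fold change was -0.04 without control 4 and control 5, the libraries with the most mitochondrial rRNA.

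Other large subunit genes of known special roles overlapped between groups. Mrpl12 encodes the stalk protein that recruits translation factors and averaged 32.0 ± 2.36 CPM in INK-ATTAC and 29.7 ± 2.67 CPM in control libraries. Mrpl10 encodes the protein that anchors this stalk, and of the members with a mean of at least 5 CPM it had the smallest within-group SD, 0.06 on the log2 CPM scale, with 48.6 ± 2.35 CPM in INK-ATTAC and 46.1 ± 1.62 CPM in control libraries. Mrpl58, a peptidyl-tRNA hydrolase that frees stalled ribosomes, averaged 218 ± 17.9 CPM in INK-ATTAC and 211 ± 24.0 CPM in control libraries. The negative side also held Mrpl9, Mrpl13 and Mrpl1, with log2 fold changes of -0.05, -0.05 and -0.06, and all 3 were positive without control 4 and control 5. Mrps36 is named as a small subunit protein but is known as a part of the oxoglutarate dehydrogenase complex. It averaged 37.7 ± 4.70 CPM in INK-ATTAC and 37.3 ± 6.05 CPM in control libraries.

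Mrps30, a large subunit protein despite its name, varied most between libraries. Its within-group SD was 0.63 on the log2 CPM scale, against a median of 0.145 over the members and 0.194 over all genes in their range of mean CPM. INK-ATTAC libraries 1 to 8 had 4.30, 3.81, 3.91, 7.50, 8.00, 9.37, 4.08 and 5.12 CPM, and control libraries 1 to 7 had 3.08, 3.36, 6.87, 8.95, 8.70, 2.86 and 3.44 CPM. INK-ATTAC 4, 5 and 6 and control 3, 4 and 5 were high and the other 9 libraries low, so each group held both levels. The log2 fold change of Mrps30 was 0.12 with an SE of 0.29 (edgeR, adjusted p = 1.00).

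The second comparison asked how the genes varied across libraries as a set. Their summed level was 4180 ± 309 CPM in INK-ATTAC and 4063 ± 333 CPM in control libraries (SD, n = 8 and 7), with ranges of 3810 to 4673 CPM in INK-ATTAC and 3562 to 4547 CPM in control libraries. The difference of 118 CPM was smaller than the spread within either group. Without control 4 and control 5, the control libraries averaged 3927 ± 274 CPM (SD, n = 5) and the difference was 253 CPM, still under the SD of either group. INK-ATTAC 2 and control 5 had the highest sums, and control 6 had the lowest. On total counts in place of TMM library sizes, the sums were 4161 ± 183 CPM in INK-ATTAC and 4068 ± 267 CPM in control libraries, with the narrower ranges of 3927 to 4433 in INK-ATTAC and 3775 to 4502 in control libraries. TMM factors were lowest in INK-ATTAC 2, at 0.949, and highest in control 6, at 1.06, the same libraries that were highest and lowest in the members.

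The sums of both subunits were high and low in the same libraries. Large subunit genes summed to 2948 ± 211 CPM in INK-ATTAC and 2868 ± 233 CPM in control libraries, and small subunit genes to 1195 ± 94.4 CPM in INK-ATTAC and 1158 ± 95.9 CPM in control libraries. The ratio of large to small was 2.47 ± 0.029 in INK-ATTAC and 2.48 ± 0.040 in control libraries, with ranges of 2.44 to 2.51 in INK-ATTAC and 2.41 to 2.52 in control libraries. The sums thus differed far more between libraries than their ratio did.

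**Figure D3:**
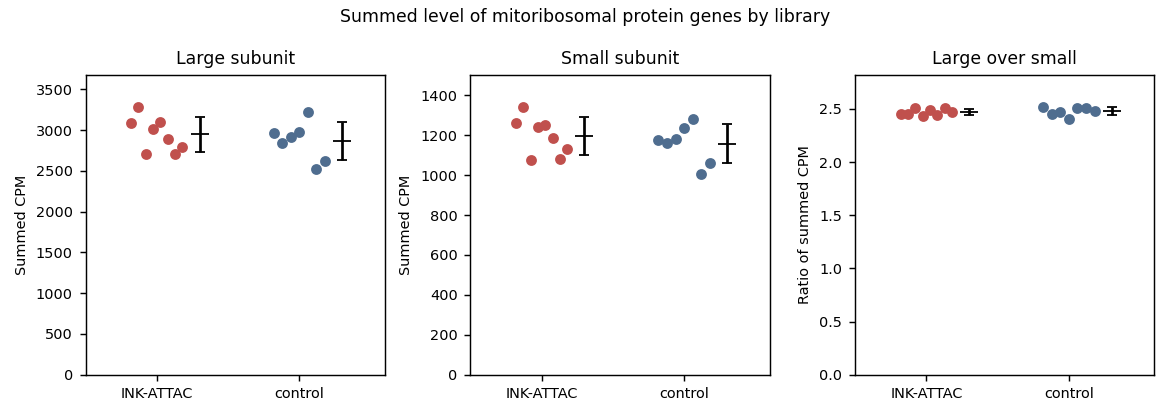
Summed CPM of large subunit genes, of small subunit genes and the ratio of both sums, 1 point per library in the order of the labels' numbers, INK-ATTAC left and control right, with the mean and SD beside each group. The ratio stays between 2.41 and 2.52 in all 15 libraries, while the sums overlap widely between groups.

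After each group's mean was taken out, the log2 CPM of 2 members correlated across the 15 libraries with a median r of 0.528 over 2850 pairs, and 89.6% of the pairs were above 0. The median r of members with 9780 other genes in the same range of CPM was -0.00214. All genes share the libraries and their scaling, so these values describe and carry no test. Mrpl51 followed the other members most, with a median r of 0.785, and Mrpl42 was next with 0.750. Mrps2 followed them least, with a median r of -0.29, then Mrpl4, counterpart of bacterial L4, with -0.13 and Mrpl3, counterpart of bacterial L3, with -0.01. Control 6 was the lowest of all libraries for 42 of the 76 members, and INK-ATTAC 2 and control 5 were each the highest for 24.

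**Figure D4:**
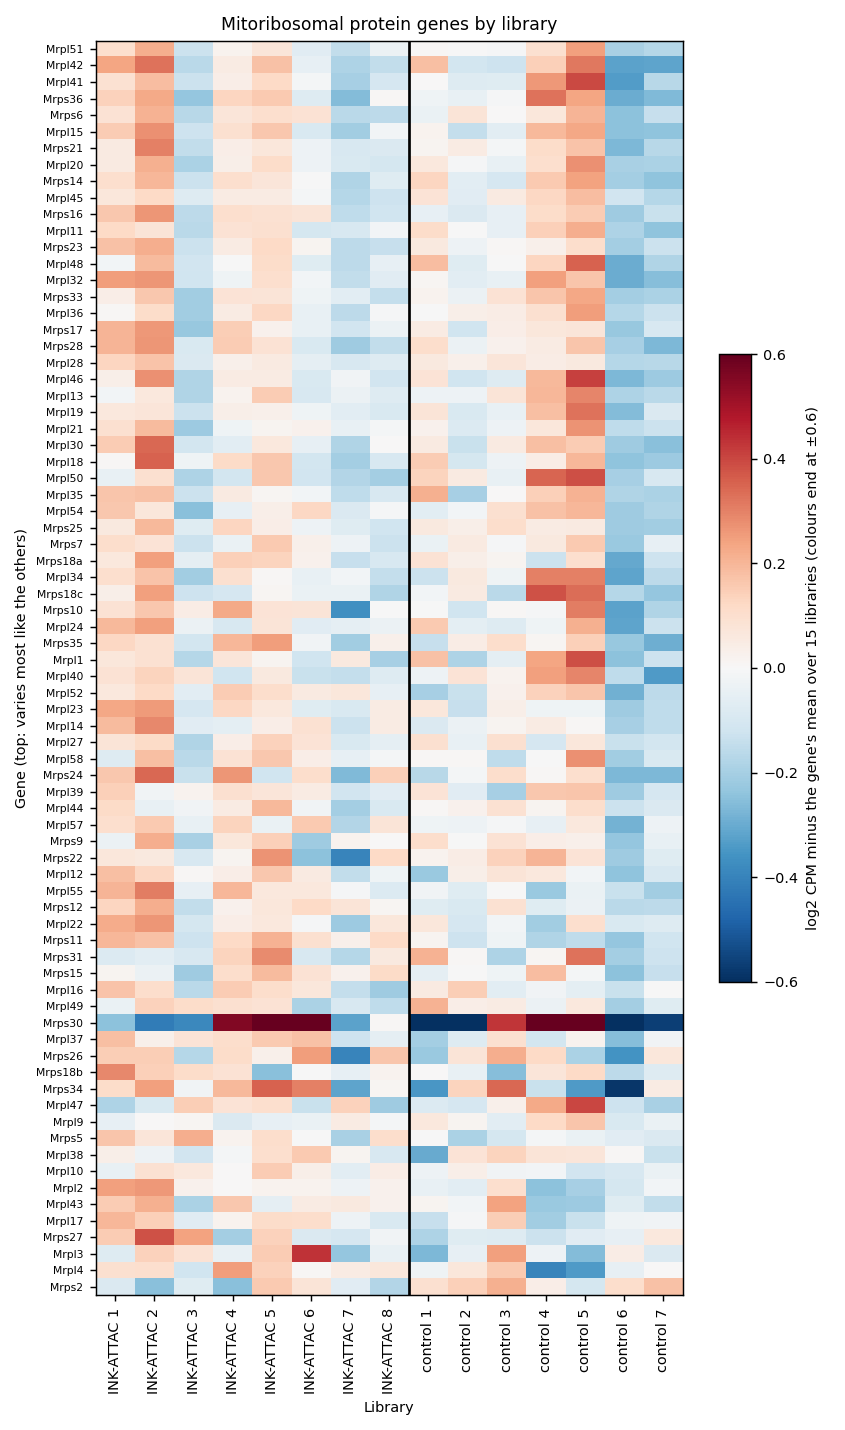
Log2 CPM of each tested gene minus its mean over 15 libraries (red above, blue below, colours end at ±0.6), libraries in columns with INK-ATTAC left of the line and control right, genes ordered with those that varied most like the others at the top. INK-ATTAC 2 and control 5 are red and control 6 is blue over most of the genes, and the Mrps30 line shows 6 high libraries.

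Markers of choroidal vessels were low in the 2 libraries highest in the members and high in 2 that were low in them. Choroidal endothelial markers had a mean log2 CPM of 3.84 in INK-ATTAC 2 and 3.96 in control 5, the 2 libraries highest in the members. They had 5.29 in INK-ATTAC 7 and 5.37 in control 6, both low in the members. Not every library followed this, since control 1 had 3.98 while its members' mean log2 CPM of 5.41 was the control median. Pericyte and smooth muscle markers had 4.29 in INK-ATTAC 2 and 4.24 in control 5, and 5.47 in INK-ATTAC 7 and 5.53 in control 6, and all 10 were detected in every library, with a summed level of 614 to 998 CPM in INK-ATTAC and 531 to 1010 CPM in control libraries. The part of the pericyte and smooth muscle level in the members' levels was not tested. All 14 endothelial markers were detected in every library, with a summed level of 394 to 778 CPM in INK-ATTAC and 381 to 793 CPM in control libraries. The endothelial mean log2 CPM was 4.59 ± 0.42 in INK-ATTAC and 4.59 ± 0.52 in control libraries. With the endothelial level as a covariate, chosen after seeing the data, 53 of 76 members were positive with a median log2 fold change of 0.04, and none passed the adjusted threshold. In that fit 7 were higher at an unadjusted p under 0.05, against 3.26% of all genes tested, and 2 were lower, against 2.91%. The muscle markers had a mean log2 CPM of 5.75 ± 0.69 in INK-ATTAC and 4.91 ± 0.99 in control libraries, and their part in the members' levels beyond the covariate fit above was not tested.

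**Figure D5:**
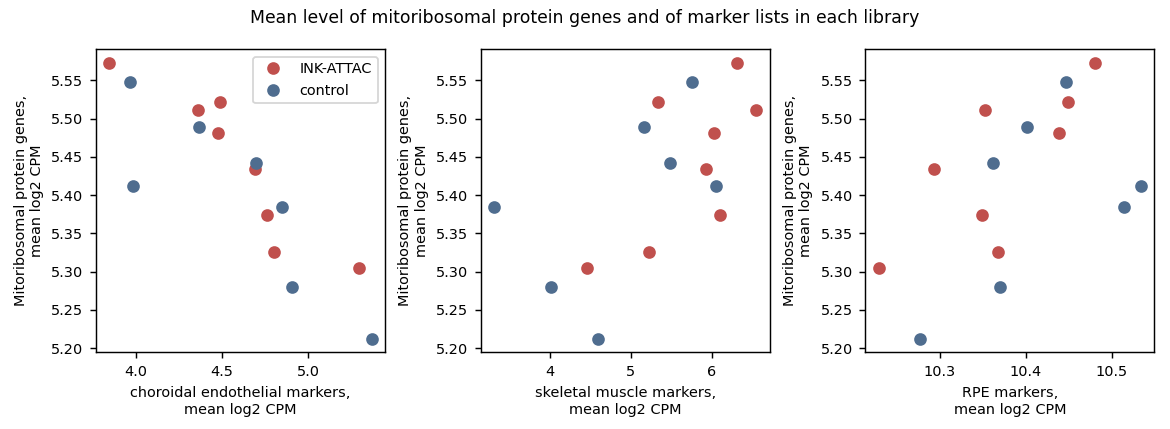
Mean log2 CPM of the 76 tested genes (vertical) against the mean log2 CPM of choroidal endothelial, skeletal muscle and RPE markers (horizontal), 1 point per library, red for INK-ATTAC and blue for control. The libraries highest in endothelial markers, control 6 at 5.37 and INK-ATTAC 7 at 5.29, are among the lowest in the mitoribosomal genes, and red and blue points are mixed.

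The genes lie on 17 chromosomes, with 11 on chromosome 11 and 8 on chromosome 17 as the largest counts. Many share a start region with a gene on the other strand. In the GENCODE annotation of GRCm38, 33 of the 77 annotated members (42.9%) had the start of an opposite-strand protein-coding gene within 1000 bp, against 2384 of 21951 protein-coding genes (10.9%). That background includes genes too low to be tested here, and the share among tested genes was not counted. The 33 members made 32 distinct pairs, since Mrps11 and Mrpl46 are partners of each other, and in 14 of the pairs the 5' ends overlap. Counted by member, 32 partners were tested, since B430218F22Rik, the partner of Mrps30, was not. Mrps11 and Mrpl46 each count as a partner here, so their pair enters 2 times. Of these 32 partners, 14 had a log2 fold change of the same sign as the member. At an unadjusted p under 0.05 there was 1 partner, namely Mrps11 as the partner of Mrpl46. Of all genes tested, 2.20% were higher and 1.94% lower at that level.

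Mrps11 and Mrpl46 form such a pair with each other on chromosome 7. Their RefSeq starts lie 42 bp apart, and their promoter windows share 141 bases. The YY1 element in capitals above lies in the Mrps11 window outside the shared bases. Each window stops 50 bases after its start, so this does not assign the element to Mrps11 alone. Mrpl46, a mitochondria-specific protein of the large subunit, had 33.0, 37.6 and 45.2 CPM (lowest, median and highest) in INK-ATTAC and 31.0, 35.4 and 49.7 CPM in control libraries. Both groups overlapped fully, and the log2 fold change was -0.01 with an SE of 0.10 (edgeR, adjusted p = 1.00), beside the 0.22 (SE 0.06) of Mrps11. The difference between these 2 fold changes was not tested. The annotated exons of both genes overlap by 173 bases, 7.97% of the exon bases of Mrps11 and 12.2% of those of Mrpl46, and the strand setting of the counting is not given in the sources used here. Mrps12 starts 172 bp from Sars2, the mitochondrial seryl-tRNA synthetase, which had a log2 fold change of 0.06 (SE 0.12). Mrpl36 overlaps at its 5' end with Ndufs6, a complex I subunit with a log2 fold change of 0.09 (SE 0.08). Mrpl43 overlaps at its 5' end with Twnk, the mitochondrial DNA helicase, with -0.17 (SE 0.15). Twnk overlaps 33.4% of the exon bases of Mrpl43, so part of the reads may be mixed.

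Further proteins of this ribosome carry other names, and 0 of the 5 genes followed here were at an unadjusted p under 0.05. Gadd45gip1, a large subunit protein, had 14.4 ± 1.71 CPM in INK-ATTAC and 12.8 ± 2.33 CPM in control libraries, a log2 fold change of 0.17 (SE 0.11). The small subunit proteins Ptcd3, Chchd1, Aurkaip1 and Dap3 had log2 fold changes of -0.09, -0.08, 0.03 and -0.01. Dap3 binds GTP, and Ptcd3 is a pentatricopeptide repeat protein.

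The machinery that works with this ribosome was followed in lists of genes, each against the same fit. Of 25 genes for ribosome assembly and rRNA modification, 15 were positive, with a median log2 fold change of 0.02. At an unadjusted p under 0.05, 1 of them was higher, against 2.20% of all genes tested. It was Mtg2, a GTPase of large subunit assembly, with 20.7, 23.3 and 25.4 CPM (lowest, median and highest) in INK-ATTAC and 19.1, 20.7 and 22.6 CPM in control libraries, a log2 fold change of 0.15 with an SE of 0.06 (edgeR, adjusted p = 1.00). Ybey, an endoribonuclease, had a log2 fold change of -0.23 (SE 0.11). Of 15 translation factors, 8 were positive, with a median of 0.02 and none at an unadjusted p under 0.05. Among them were Oxa1l, which inserts new proteins into the inner membrane, with 0.12 (SE 0.07), and the GTPase Guf1 with 0.22 (SE 0.15). Of 20 genes that charge mitochondrial tRNAs, 12 were positive, with a median of 0.03 and none at an unadjusted p under 0.05. Gatc, a subunit of the amidotransferase that makes glutaminyl-tRNA, had 0.12 (SE 0.06) and the prolyl-tRNA synthetase Pars2 had -0.23 (SE 0.13).

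Of 11 genes for transcription and replication of mitochondrial DNA, 5 were positive, with a median log2 fold change of -0.01. Of these, 1 was lower at an unadjusted p under 0.05, against 1.94% of all genes tested. This was Tfam, which packages mitochondrial DNA and starts its transcription. Tfam had 20.6, 21.9 and 26.2 CPM (lowest, median and highest) in INK-ATTAC and 22.0, 25.1 and 31.1 CPM in control libraries. These ranges overlapped, and the log2 fold change was -0.18 with an SE of 0.08 (edgeR, adjusted p = 1.00). Mterf1b, a termination factor gene, had -0.36 (SE 0.21). Of 9 regulators of mitochondrial biogenesis, 4 were positive, with a median of -0.02, and Gabpa and Gabpb1, which form the ETS factor also called NRF2, each had -0.14 (SE 0.09).

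The RNAs that mitochondrial DNA itself encodes were set beside the genes of the ribosomal proteins. Of 13 mitochondrial mRNAs, 4 had a positive log2 fold change and the median was -0.09, with none at an unadjusted p under 0.05. Their summed level was 19312 ± 1716 CPM in INK-ATTAC and 20468 ± 3215 CPM in control libraries. Without control 4 and control 5 the direction turned, with 9 of 13 positive, a median of 0.08 and a sum of 18954 ± 2023 CPM in the 5 control libraries left. The largest deviations by p were mt-Nd6 with -0.19 (SE 0.10) and mt-Nd4l with 0.31 (SE 0.17). The ribosome's own RNAs, mt-Rnr2 and mt-Rnr1, both had a log2 fold change of -0.22 over all libraries, with SEs of 0.14 and 0.16. Control 4 and control 5 held the highest levels, and without them the values were 0.03 for mt-Rnr2 and 0.09 for mt-Rnr1, each with an SE of 0.09, so this direction turned too. mt-Rnr2 had 4688, 5417 and 6387 CPM (lowest, median and highest) in INK-ATTAC and 4630, 5367 and 9548 CPM in control libraries, so the group medians lay close together and the highest control library stood far above the highest INK-ATTAC one.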

How the data were processed

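RNA was purified on columns from tissue in TRIzol and turned into amplified cDNA by SMARTer, per the labels' protocols. The submitters' processing notes name GRCm38 as the build and bcl2fastq, DRAGEN, edgeR and limma as tools. Their versions, the counter, its use of strand and the annotation were not given in the sources used here. The authors deposited raw counts per Ensembl gene and, per the file headers, a comparison table of log2 CPM, log2 fold change, p-value and further scores. Of 40757 entries, 276 repeats were collapsed. Libraries were grouped by their labels. The lowest chi-square per gene between 2 libraries of a group was 30.0 over 49 pairs, so none repeated another of its group. Pairs across the groups were not compared in this way.

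Counts were scaled with TMM and filtered with filterByExpr in edgeR 4.0.16 (R 4.3.3), and tested with edgeR's two-sided quasi-likelihood F-test over 17991 genes with Benjamini-Hochberg adjustment at 0.05. The SE is the absolute log2 fold change over the square root of F. The script was tested on simulated data. Lengths are those of principal transcripts in a GENCODE annotation of GRCm38. Counts without molecular identifiers hold amplified copies. Alternatives were RLE scaling, DESeq2 1.42.0, limma-voom (limma 3.58.1) with and without sample quality weights, 2 other filters, covariates for muscle, rod, lens and sex-linked level, a block by title number and leaving out each library. The endothelial covariate, a block by the number in the sample descriptions and leaving out control 4 and control 5 together were chosen after seeing the data.

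Genes were named by p (6 on each side), level per kb (4 highest and 4 lowest), within-group SD (3 largest and 3 smallest, mean of at least 5 CPM), role, failing the filter, and, for other lists, the 2 of lowest p. Mrpl46, Mrpl4, Mrpl51, Mrpl36, Mrpl43 and genes beside them in start pairs were added after their values were seen. The members and lists were chosen with earlier results of these data known.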

Additional observations from a re-analysis of the deposited data

Results flagged for a closer look

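In each group of 8 or 7 libraries, the highest and the lowest library were compared with the nearest other one by Dixon's ratio, over 60 groups of values, and chance gives about 1 in 20. Mrpl58, the rescue hydrolase, had 258.8 CPM in control 5, above the next control library at 214.8 CPM. Mrps21 had 129 CPM in INK-ATTAC 2, above the next INK-ATTAC library at 109.8 CPM. Mrps18c had 46.18 CPM in INK-ATTAC 2, above the next INK-ATTAC library at 39.94 CPM. Control 5 and INK-ATTAC 2 are the libraries with the highest summed level of the mitoribosomal genes.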

How the results depend on the processing

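In none of the 29 settings, of which 14 did not leave out a single library, did a mitoribosomal gene pass the adjusted threshold, and the lowest adjusted p was 0.507, for Mrps11 with the endothelial covariate. The median log2 fold change was positive in 28 settings, the muscle covariate being the exception. The count of genes higher at an unadjusted p under 0.05 was 8 with quality weights (3.65% of all genes tested), 1 with the muscle covariate (2.12%) and 3 with the rod (1.75%) or the lens covariate (1.77%). That of genes lower was 0 with the rod (1.66%) or the lens covariate (1.70%) and 2 with the endothelial covariate (2.91%). With the muscle covariate, 27 genes were positive. Leaving out 1 library gave 2 to 9 higher genes (1.44% to 3.32% of all genes tested) and 0 to 2 lower genes (1.35% to 2.85%). Of the 25 named genes tested, 15 kept their sign in every setting and 10 did not. With quality weights, Mrpl13 was at 0.0062, Mrpl1 at 0.0196 and Mrpl47 at 0.0051. With the muscle covariate, Mrps21 was at -0.0376, Mrpl42 at -0.0809, Mrpl28 at -0.0378, Mrps30 at -0.0935 and Mrps36 at -0.102. With the rod covariate, Mrpl47 was at 0.0024. Without control 4 and control 5, Mrpl9 was at 0.0012, Mrps18c at 0.0820, Mrpl13 at 0.0453, Mrpl1 at 0.0624 and Mrpl47 at 0.0794. Leaving out 1 library gave ranges of -0.0154 to 0.0340 for Mrpl28, -0.0277 to 0.0776 for Mrps36, -0.0300 to 0.0487 for Mrps21, -0.0191 to 0.290 for Mrps30 and -0.0839 to 0.0128 for Mrpl47. The cause was not tested. The SEs of the log2 fold changes had a median of 0.08, which limits what these libraries can resolve.

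Libraries that share a number in the labels' titles were not paired by it. The correlation of their deviations from the group means lay between -0.098 and 0.271 over the 7 numbers, and 4 of the 7 correlated best with their own number. With this number as a block, 3 genes were higher and 0 lower at an unadjusted p under 0.05 (2.16% and 1.95% of all genes tested), and 60 were positive. The sample descriptions number the libraries otherwise, so that control 1 to 7 share the numbers of INK-ATTAC 2 to 8. These numbers, examined after seeing the data, did not pair the libraries either, with correlations between -0.147 and 0.204 and 1 of 7 best with its own number. With them as a block, 2 genes were higher and 1 lower (2.03% and 2.21% of all genes tested), 45 were positive with a median of 0.0153, Mrpl28 was at -0.0060 and Mrps36 at -0.0046. Xist less the mean of Y-linked genes (log2 CPM, the sex-linked level) split both groups by description number. It was -5.64 to -3.95 in INK-ATTAC 1 to 4 and 10.7 to 11.4 in INK-ATTAC 5 to 8. In control libraries it was -5.31 to -5.03 in control 1 to 3 and 9.44 to 13.3 in control 4 to 7. With this level as a covariate, 5 genes were higher and 1 lower (2.25% and 1.93% of all genes tested). In that fit 51 were positive with a median of 0.0326.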

Other observations

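The pattern of Mrps30 between libraries was shared by a few other genes, picked after their values were seen as the 3 whose log2 CPM tracked it most closely across the 15 libraries. Slc25a33, a mitochondrial carrier of pyrimidine nucleotides, had 7.52, 6.87 and 7.37 CPM in INK-ATTAC 4, 5 and 6 and 3.47 to 4.33 CPM in the other INK-ATTAC libraries. It had 7.36, 6.29 and 7.56 CPM in control 3, 4 and 5 and 2.40 to 3.90 CPM in the other control libraries. Klhdc2 had 26.8, 27.8 and 29.0 CPM in INK-ATTAC 4, 5 and 6 and 24.5, 24.2 and 23.7 CPM in control 3, 4 and 5, and no other library was above 18.98 CPM. Isoc1 had 33.5, 40.2 and 40.5 CPM in the same INK-ATTAC libraries and 32.5, 32.0 and 31.0 CPM in the same control libraries, and no other library was above 25.43 CPM. These 6 libraries are the ones numbered 4, 5 or 6 in the sample descriptions of both groups, and the labels do not say what that number stands for.

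Processed pseudogenes of members also held counts. Over all 15 libraries, Mrpl23-ps1 had 6050 counts, Mrpl48-ps 3615, Mrps36-ps1 2724 and Mrps36-ps2 966.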
